A study of Homo sapiens with 18 samples.

Results

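Histone demethylases of the KDM family were followed here in PC9 cells, a human non-small cell lung cancer line, exposed to an EGFR inhibitor, a platinum drug or a histone deacetylase inhibitor. The members were the 10 genes KDM5A, KDM5B, KDM5C, KDM1A, KDM2B, KDM4A, KDM4B, KDM4C, KDM6A and KDM6B, taken by name from a table of 30727 genes, with the KDM5 genes, which are tied to drug tolerance, placed first. All 10 were found, and all 10 were among the 17641 genes with enough reads to test.

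The 18 libraries formed 6 groups of 3, named replicates a, b and c. DTP cells were drug-tolerant persisters that had survived 8 days in 1 µM erlotinib, an inhibitor of the EGFR kinase; the treatment text also mentions a sort that no sample title names, and the libraries were taken as unsorted. DTP_TSA cells were such persisters exposed to 50 nM trichostatin A (TSA), an inhibitor of histone deacetylases, for 5 h. Erlotinib_24h cells had 1 µM erlotinib for 24 h, and carboplatin_72h cells had 50 µM carboplatin, a DNA-binding platinum drug, for 72 h. Parental_TSA cells were parental PC9 cells given 50 nM TSA for 5 h, and parental_DMSO cells received the solvent. All cells grew in RPMI-1640 with 10% serum, so every group is a state of this single line. The labels do not say whether replicates were separate cultures, so each p-value measures the spread between these libraries.

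Histone demethylases take methyl groups off lysines of histone tails and so oppose the methyltransferases. KDM1A (LSD1) is a FAD-dependent amine oxidase that acts on mono- and dimethylated H3K4 within the CoREST repressor complex. The other members are Jumonji enzymes that need iron, oxygen and 2-oxoglutarate: KDM5 enzymes act on H3K4, KDM2B brings a variant Polycomb complex to CpG islands, KDM4 enzymes act on H3K9 and H3K36, and KDM6 enzymes act on H3K27.

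The 4 promoter windows below are those of the 2 KDM5 genes that rose in DTP cells (KDM5A and KDM5B) and of the 2 members with the widest fold change in any comparison (KDM6B and KDM1A). They are RefSeq sequences of build GRCh38.p14, from 250 bases before to 50 bases after the start of the gene, at chr12:389271-389570 (minus strand), chr1:202808372-202808671 (minus strand), chr1:23019218-23019517 (plus strand) and chr17:7833967-7834266 (plus strand). Capitals mark matches on either strand to a searched motif, here the GC box GGGCGG and, in KDM5A, the ETS core CCGGAA.
KDM5A: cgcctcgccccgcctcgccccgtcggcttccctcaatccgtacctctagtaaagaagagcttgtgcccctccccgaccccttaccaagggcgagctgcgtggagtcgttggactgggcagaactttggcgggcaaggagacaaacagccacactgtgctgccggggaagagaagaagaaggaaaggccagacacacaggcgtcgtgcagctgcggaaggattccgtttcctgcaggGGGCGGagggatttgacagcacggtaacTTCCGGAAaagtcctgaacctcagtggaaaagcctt
KDM5B: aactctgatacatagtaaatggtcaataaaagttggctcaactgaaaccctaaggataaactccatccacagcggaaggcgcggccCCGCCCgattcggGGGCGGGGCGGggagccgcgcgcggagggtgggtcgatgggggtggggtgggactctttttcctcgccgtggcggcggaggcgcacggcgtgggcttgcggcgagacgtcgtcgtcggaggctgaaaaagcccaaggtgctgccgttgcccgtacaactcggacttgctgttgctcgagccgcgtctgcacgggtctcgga
KDM1A: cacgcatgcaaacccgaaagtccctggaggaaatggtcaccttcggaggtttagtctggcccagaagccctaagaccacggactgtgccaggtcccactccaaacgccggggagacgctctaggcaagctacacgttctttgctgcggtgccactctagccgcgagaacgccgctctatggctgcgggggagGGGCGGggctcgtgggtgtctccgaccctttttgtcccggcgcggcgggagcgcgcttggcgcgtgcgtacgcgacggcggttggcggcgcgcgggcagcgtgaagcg
KDM6B: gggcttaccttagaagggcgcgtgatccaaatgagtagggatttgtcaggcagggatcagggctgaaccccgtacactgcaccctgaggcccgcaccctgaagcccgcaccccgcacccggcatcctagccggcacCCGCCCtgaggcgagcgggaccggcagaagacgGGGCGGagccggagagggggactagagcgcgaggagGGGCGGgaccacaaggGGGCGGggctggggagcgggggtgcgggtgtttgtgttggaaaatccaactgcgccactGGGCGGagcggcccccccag
Among 35116 RefSeq promoter windows of this length, 45% held the GC box and 17.2% the ETS core. The window of KDM5A held 1 GC box and 2 ETS cores that overlap each other on opposite strands. The KDM5B window held 3 GC boxes, the KDM1A window 1 and the printed KDM6B window 5. No match in these 4 windows was found to CCAAT (34.6% of all windows), CACGTG (7.26%), TGACGTCA (1.85%), TTTNNCGC (6.89%), TGACNNNGC (13.3%) or TGTTTAC (3.42%), or to the NF-kB core (1.91%), which says only that these letters are absent there. All 10 members matched the promoter table, with 14 windows in all. KDM6B has a second window, at chr17:7839667-7839966 (plus strand), that is not printed. It held no match to a searched motif. A match is a description of the letters and not a bound site.

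Levels are given in CPM, gene reads scaled to a common library size, and differences as log2 fold changes of edgeR's quasi-likelihood fit with p-values adjusted over all genes tested. A member is called where its adjusted p was under 0.05. Since no length was used, levels compare libraries within a gene and not genes with each other. In bulk RNA, fewer cells with a transcript and less transcript per cell cannot be told apart. Both TSA replicates a stood apart from replicates b and c of their groups. Their counts differed by a chi-square of 119.8 to 309 per gene from those of their partners, against 3.70 to 40.2 for all other replicate pairs. Of the reads on genes and ERCC spike-in in DTP_TSA a, 50.0% were spike-in, against 0.320% to 0.779% in the other 17 libraries. The fit pools the spread over all groups, so these 2 libraries widened the errors of every comparison, and members whose call changes without them are given below with both sets of values. Epithelial markers were present in every group (6 of 6 at 1 CPM or more, summing to 3989 to 8468 CPM). Markers of other cells were low, with 1 of 6 fibroblast markers at 1 CPM or more (sums of 4.69 to 32.2 CPM), 2 or 3 of 4 endothelial markers (17.4 to 115 CPM) and 1 or 2 of 5 leukocyte markers (23.2 to 70.6 CPM); their part in the results was not tested.

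Expression of all 10 members differed among the 6 groups, as did that of 92.4% of all genes tested. KDM1A ranked 128 of 17641 genes by the F statistic of this test, and its highest group mean was 4.68 times its lowest. The plot of levels by library shows each member in every library.

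**Figure D1:**
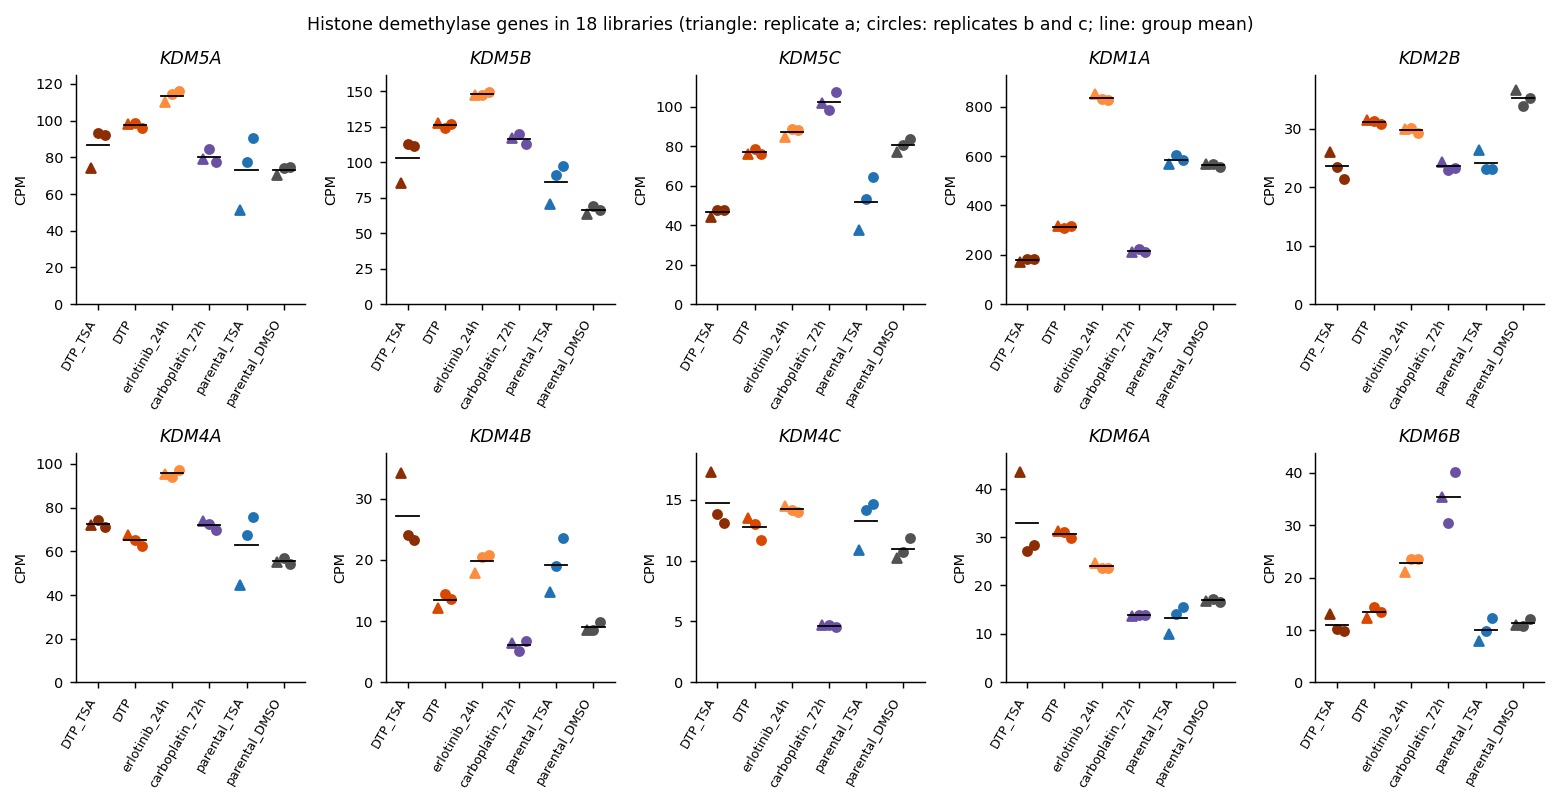
CPM of each demethylase gene in the 18 libraries, by group, with the group mean as a line and replicate a as a triangle. KDM1A ran between 172 CPM in a DTP_TSA library and 853 CPM in an erlotinib_24h library, and the triangles of both TSA groups lay apart from the circles for several genes.

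In DTP cells 4 members rose and 2 fell against parental_DMSO, 6 of 10 beside 58.9% of all genes called in that comparison (31% higher and 27.8% lower). KDM5A, KDM5B, KDM4B and KDM6A rose, and KDM1A and KDM2B fell. After 24 h of erlotinib 8 members rose and only KDM2B fell (9 of 10, beside 69.3% of all genes, 36.6% higher and 32.7% lower). After carboplatin 4 rose and 4 fell (8 of 10, beside 58.9%, 30.3% higher and 28.6% lower). The members' median log2 fold change was 0.24 in DTP, 0.60 after erlotinib and −0.07 after carboplatin, against 0.06, 0.11 and 0.06 for all genes tested. On the spike-in scale described below the members' medians were 0.33, 0.24 and 0.58, against 0.16, −0.23 and 0.72 for all genes tested. These 3 comparisons share the parental_DMSO libraries, so their values are set side by side without a measure of their likeness. Directly against erlotinib_24h, DTP cells had 0 members higher by edgeR or DESeq2 (1 at an unadjusted p under 0.05) and 4 lower, KDM1A, KDM4A, KDM4B and KDM6B. On the spike-in scale this balance turned, with 2 members higher in DTP (KDM2B and KDM6A) and 1 lower (KDM1A). On the usual scale 55.3% of all genes were called in that comparison, 30.5% higher and 24.8% lower. The balance of all genes moved the same way on the spike-in scale, with 8502 higher and 2030 lower. Without both TSA replicates a, the counts of called members were 9 for DTP, 9 for erlotinib, 10 for carboplatin and 9 for DTP against erlotinib_24h, beside 73.4%, 80.3%, 73.8% and 71.5% of all genes.

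**Figure D2:**
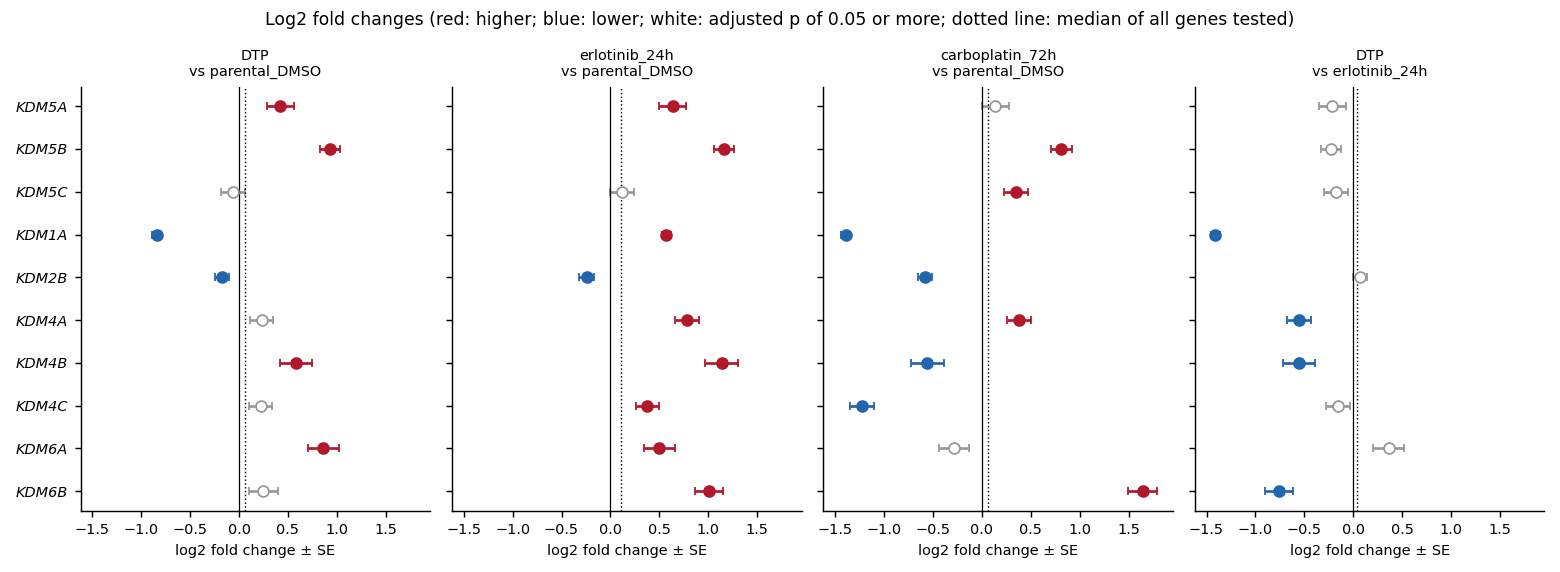
Log2 fold change with its standard error for each member in 4 comparisons, coloured where the adjusted p was under 0.05, with a dotted line at the median of all genes tested. KDM1A lay at −0.84 in DTP and at 0.57 after 24 h of erlotinib, and KDM6B reached 1.64 after carboplatin.

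KDM5 enzymes remove di- and trimethylation of H3K4, and KDM5A is known for its link to drug-tolerant persisters. KDM5A had 98.4, 98.9 and 95.8 CPM in DTP cells, 110.0, 115 and 116 CPM after 24 h of erlotinib, and 70.1, 74.4 and 74.6 CPM in parental_DMSO cells. Both drug groups lay above every parental_DMSO library without overlap, with erlotinib_24h the higher. The log2 fold change was 0.42 (SE 0.14, adjusted p = 0.0152) in DTP and 0.64 (SE 0.14, adjusted p = 0.000599) after erlotinib. The DTP call was lost without parental_DMSO replicate a (adjusted p = 0.0517). After carboplatin KDM5A had 78.9, 84.6 and 77.4 CPM, a log2 fold change of 0.14 with an adjusted p of 0.412, which became 0.0216 without both TSA replicates a. DTP and erlotinib_24h libraries of KDM5A did not overlap, with a log2 fold change of −0.22 for DTP against erlotinib_24h (adjusted p = 0.197, and 0.000752 without both TSA replicates a).

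KDM5B, also known as JARID1B, rose in all 3 drug groups. It had 128, 124 and 127 CPM in DTP cells, 147, 148 and 149.8 CPM after erlotinib and 117, 119.7 and 113 CPM after carboplatin, against 63.8, 69.3 and 66.0 CPM in parental_DMSO cells. No library of the 3 drug groups came near the parental range. KDM5B was 1.90-fold higher in DTP (log2 0.93, SE 0.10, adjusted p = 7.39e-07), 2.23-fold higher after erlotinib (adjusted p = 2.83e-08) and 1.76-fold higher after carboplatin (adjusted p = 3.78e-06). The difference between DTP and erlotinib_24h was −0.23 (adjusted p = 0.0675, and 1.47e-05 without both TSA replicates a). KDM5C, the X-linked member, had 102, 98.2 and 107 CPM after carboplatin, against 76.9, 80.6 and 83.7 CPM in parental_DMSO cells. It rose after carboplatin (log2 0.35, SE 0.12, adjusted p = 0.021), and this call was lost without parental_DMSO a, parental_DMSO b or carboplatin_72h c, with adjusted p up to 0.0992. In DTP its log2 fold change was −0.06 (adjusted p = 0.679), with 76.0 to 78.7 CPM overlapping the lower end of the parental range, and after erlotinib it was 0.12 (adjusted p = 0.411). Between DTP and erlotinib_24h KDM5C had a log2 fold change of −0.18 (adjusted p = 0.23, and 0.00838 without both TSA replicates a).

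KDM1A fell in DTP and rose after 24 h of erlotinib, a rise that was not called on the spike-in scale (log2 0.21, adjusted p = 0.282). It had 318, 309 and 316 CPM in DTP cells, 853, 831 and 827 CPM after 24 h of erlotinib, and 567, 567 and 556 CPM in parental_DMSO cells. DTP libraries lay below, and erlotinib_24h libraries above, every parental_DMSO library. KDM1A fell in DTP by 0.84 on the log2 scale (SE 0.04, adjusted p = 5.34e-11), rose by 0.57 after 24 h of erlotinib (SE 0.04, adjusted p = 3.79e-09), and was lower in DTP than in erlotinib_24h by a log2 fold change of −1.41 (SE 0.04, adjusted p = 1.12e-13). Carboplatin libraries had 213, 222 and 210.2 CPM, 0.381 times the parental_DMSO mean (log2 −1.39, SE 0.04, adjusted p = 2.23e-13). The gene LUZP1, which shares bases with KDM1A in RefSeq, had 152 CPM in DTP and 136 CPM after erlotinib, against 102 CPM in parental_DMSO. The counting is not stated to use strand, so reads of the shared stretch could fall to either gene.

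KDM2B carries a CXXC domain that binds unmethylated CpG. Its CPM was lower in each drug group, but on the spike-in scale only the fall after erlotinib was called. It had 31.5, 31.4 and 30.8 CPM in DTP cells, 29.9, 30.1 and 29.3 CPM after erlotinib and 24.4, 22.9 and 23.3 CPM after carboplatin, against 36.6, 33.8 and 35.3 CPM in parental_DMSO cells. Every drug-treated library lay below every parental_DMSO library. The log2 fold change was −0.18 in DTP (adjusted p = 0.0454), −0.24 after erlotinib (adjusted p = 0.0064) and −0.58 after carboplatin (adjusted p = 2.89e-06). These values were −0.08 (adjusted p = 0.649), −0.61 (adjusted p = 0.000999) and, with the sign turned, 0.06 (adjusted p = 0.703) on that scale. The DTP call is marginal: it was lost when any of 12 single libraries was left out, with adjusted p up to 0.161. RNF34 shares bases with KDM2B in RefSeq and averaged 29.5 CPM in DTP, 23.3 CPM after erlotinib and 43.6 CPM after carboplatin, against 36.6 CPM in parental_DMSO, so the counts of both are uncertain where they overlap.

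The KDM4 enzymes, which demethylate H3K9 and H3K36, moved apart from each other after carboplatin. KDM4A had 73.8, 72.6 and 69.7 CPM after carboplatin, against 55.1, 57.1 and 54.4 CPM in parental_DMSO cells, and rose (log2 0.38, SE 0.12, adjusted p = 0.0141; up to 0.0564 with parental_DMSO a or carboplatin_72h b left out). KDM4C had 4.70, 4.73 and 4.55 CPM after carboplatin, against 10.2, 10.7 and 11.9 CPM in parental_DMSO cells. It was 0.426 times the parental mean, with no overlap (log2 −1.23, SE 0.12, adjusted p = 2.08e-07). KDM4B had 6.44, 5.17 and 6.68 CPM after carboplatin, against 8.59, 8.47 and 9.84 CPM in parental_DMSO cells (log2 −0.56, SE 0.17, adjusted p = 0.00999), a direction that depends on the scaling described below. After 24 h of erlotinib all 3 KDM4 genes rose, KDM4B to 17.9, 20.5 and 20.8 CPM (log2 1.14, SE 0.17, adjusted p = 1.16e-05), KDM4A by a log2 fold change of 0.79 (adjusted p = 2.15e-05) and KDM4C by 0.38 (adjusted p = 0.00956). By spike-in scaling KDM4B stayed called after erlotinib (0.77, adjusted p = 0.00677), whereas KDM4A (0.42, adjusted p = 0.137) and KDM4C (0.02, adjusted p = 0.955) were not. In DTP cells only KDM4B passed the test among them, with 12.2, 14.4 and 13.7 CPM (log2 0.58, SE 0.17, adjusted p = 0.00651). KDM4A and KDM4C had log2 fold changes of 0.23 and 0.22 in DTP (adjusted p = 0.117 and 0.123), and both passed without both TSA replicates a (adjusted p = 0.00011 and 0.00436). DTP cells had less KDM4A (log2 −0.56, adjusted p = 0.000931) and less KDM4B (log2 −0.56, adjusted p = 0.00857) than erlotinib_24h cells. Neither difference was called on the spike-in scale (−0.10 for each, adjusted p = 0.74 and 0.726). KDM4C lay at −0.16 in that comparison (adjusted p = 0.28, and 0.0342 without both TSA replicates a).

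KDM6A and KDM6B both demethylate H3K27, KDM6A as a subunit of the KMT2C/KMT2D complexes and KDM6B as a gene known to be induced by inflammatory signals. KDM6A had 31.3, 31.0 and 29.9 CPM in DTP cells, 24.6, 23.6 and 23.6 CPM after erlotinib, and 16.8, 17.3 and 16.7 CPM in parental_DMSO cells. The 3 groups did not overlap, with DTP the highest. KDM6A was 1.82-fold higher in DTP (log2 0.86, SE 0.16, adjusted p = 0.000146) and 1.42-fold higher after erlotinib (log2 0.50, SE 0.16, adjusted p = 0.00896), the erlotinib call lost on the spike-in scale (0.14, adjusted p = 0.615). It was the member with a higher mean in DTP than in erlotinib_24h by the widest margin (log2 0.36, adjusted p = 0.0588, and 8.86e-07 without both TSA replicates a), and on the spike-in scale this difference was called (0.81, adjusted p = 0.00655). KDM6B had 21.0, 23.6 and 23.7 CPM after erlotinib and 35.4, 30.4 and 40.1 CPM after carboplatin, against 11.02, 10.8 and 12.1 CPM in parental_DMSO cells. Both groups lay above the parental libraries, carboplatin by 3.12-fold (log2 1.64, SE 0.15, adjusted p = 5.39e-08) and erlotinib by 2.01-fold (log2 1.01, SE 0.14, adjusted p = 9.15e-06). In DTP cells KDM6B had 12.4, 14.5 and 13.5 CPM, a log2 fold change of 0.25 (adjusted p = 0.153, and 0.0342 without both TSA replicates a), and it was lower than in erlotinib_24h (log2 −0.76, SE 0.14, adjusted p = 0.000257), a call lost on the spike-in scale (−0.30, adjusted p = 0.254). KDM6A after carboplatin had 13.8 to 14.0 CPM, below the parental range (log2 −0.28, adjusted p = 0.131, and 2.52e-05 without both TSA replicates a), a direction that turned on the spike-in scale (0.36, adjusted p = 0.179).

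TSA was given to DTP cells and to parental cells, which asks whether deacetylase inhibition moves these genes alike in both states. In DTP_TSA cells 1 member rose and 4 fell against DTP (5 of 10, beside 56.2% of all genes, 25.6% higher and 30.7% lower), and in parental_TSA cells 2 rose and 2 fell against parental_DMSO (4 of 10, beside 58.2%, 30.8% higher and 27.4% lower). KDM4B rose in both, KDM5C and KDM2B fell in both, KDM1A fell in DTP_TSA cells, and KDM5B fell in DTP_TSA and rose in parental_TSA cells. On the spike-in scale only KDM4B (higher) and KDM1A (lower) were called in DTP_TSA, and only KDM4B (higher) and KDM2B (lower) in parental_TSA cells. Of all genes 7028 and 8480 were called there. Without both TSA replicates a, 2 members rose and 6 fell in DTP_TSA cells and 6 rose and 3 fell in parental_TSA cells (beside 70.3% and 69.3% of all genes). Of all genes 5942 rose and 6751 fell there in DTP_TSA, and 6581 rose and 5942 fell in parental_TSA.

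KDM1A had 172, 181 and 182 CPM in DTP_TSA cells, against 318, 309 and 316 CPM in DTP cells. Its levels in parental_TSA cells were 567, 603.5 and 583 CPM, against 567, 567 and 556 CPM in parental_DMSO cells. The DTP_TSA libraries lay far below the DTP libraries, while the parental_TSA libraries overlapped the parental_DMSO range at replicate a. KDM1A fell by 0.81 on the log2 scale with TSA in DTP (SE 0.04, adjusted p = 1.75e-10), and its log2 fold change with TSA in parental cells was 0.05 (SE 0.04, adjusted p = 0.321, and 0.0455 at a log2 fold change of 0.08 without both TSA replicates a). The test of the difference between both TSA effects gave −0.87 (SE 0.06, adjusted p = 2.96e-08), one of 2 members called in it, both lower, beside 38.3% of all genes (15.3% higher and 23% lower). DTP_TSA had the lowest mean KDM1A of the 6 groups, and its libraries did not overlap those of carboplatin_72h, the next lowest.

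KDM5B had 85.1, 113 and 111 CPM in DTP_TSA cells, against 128, 124 and 127 CPM in DTP cells. In parental_TSA cells it had 70.7, 91.0 and 97.1 CPM, against 63.8, 69.3 and 66.0 CPM in parental_DMSO cells. Neither pair of groups overlapped, and replicate a was the lowest in both TSA groups. The log2 fold change with TSA was −0.29 in DTP (SE 0.10, adjusted p = 0.0238) and 0.38 in parental cells (SE 0.10, adjusted p = 0.00475), and the difference was −0.67 (SE 0.15, adjusted p = 0.00177). Without both TSA replicates a these were −0.18 (adjusted p = 0.000596), 0.50 (adjusted p = 3.03e-09) and −0.68 (adjusted p = 2.27e-08). The DTP call was lost without DTP a, DTP c or DTP_TSA a, with adjusted p up to 0.107. Neither TSA effect was called on the spike-in scale, at −0.03 in DTP (adjusted p = 0.941) and 0.43 in parental cells (adjusted p = 0.108).

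KDM4B had 34.2, 24.1 and 23.3 CPM in DTP_TSA cells, against 12.2, 14.4 and 13.7 CPM in DTP cells, and 14.8, 19.0 and 23.6 CPM in parental_TSA cells, against 8.59, 8.47 and 9.84 CPM in parental_DMSO cells. Neither pair overlapped, with rises of 2.02-fold in DTP_TSA (adjusted p = 5.94e-05) and 2.14-fold in parental_TSA (adjusted p = 2.79e-05). The difference between these effects was −0.08 (SE 0.23, adjusted p = 0.812). With both TSA replicates a left out, the difference in KDM4B was −0.44 (SE 0.15, adjusted p = 0.0223). KDM5C had 44.4, 47.8 and 47.5 CPM in DTP_TSA cells, against 76.0, 78.7 and 76.1 CPM in DTP cells, and 37.7, 53.0 and 64.6 CPM in parental_TSA cells, against 76.9, 80.6 and 83.7 CPM in parental_DMSO cells. It fell by 0.72 in DTP_TSA (adjusted p = 8.79e-05) and by 0.63 in parental_TSA (adjusted p = 0.000291), with a difference of −0.09 (SE 0.17, adjusted p = 0.716). KDM2B fell by 0.40 in DTP_TSA (adjusted p = 0.000165) and by 0.55 in parental_TSA (adjusted p = 6.23e-06), to 21.5 to 26.1 CPM and 23.1 to 26.3 CPM. On the spike-in scale KDM5C lost its call in DTP_TSA (−0.55, adjusted p = 0.122) and in parental_TSA (−0.57, adjusted p = 0.0617). KDM2B lost its call in DTP_TSA (−0.33, adjusted p = 0.106) and kept it in parental_TSA (−0.55, adjusted p = 0.00359).

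The other members missed the threshold for TSA in both states. KDM6A is the one whose sign turned with a call: its log2 fold change in DTP_TSA against DTP was 0.10 (adjusted p = 0.616), with 43.4 CPM in replicate a and 27.1 and 28.4 CPM in replicates b and c, against 31.3, 31.0 and 29.9 CPM in DTP cells. Without both TSA replicates a it was −0.15 (adjusted p = 0.00992). KDM5A had 51.5, 77.7 and 90.7 CPM in parental_TSA cells, a range that held all parental_DMSO libraries. Its log2 fold change there was 0.01 (adjusted p = 0.971), and 0.21 (adjusted p = 0.00262) without both TSA replicates a. KDM4A in parental_TSA cells lay at 0.18 (adjusted p = 0.225) and, without them, at 0.37 (adjusted p = 1.62e-06). KDM4C lay at 0.28 there (adjusted p = 0.0566) and, without them, at 0.40 (adjusted p = 5.19e-05). These 3 genes thus passed as higher once both replicates were left out. KDM6A lay at −0.35 in parental_TSA cells (adjusted p = 0.0668) and, without them, at −0.18 (adjusted p = 0.00452). In DTP_TSA cells KDM4A lay at 0.16 (adjusted p = 0.289) and, without them, at 0.15 (adjusted p = 0.00788). KDM6B lay at −0.30 in DTP_TSA cells (adjusted p = 0.0935) and, without them, at −0.43 (adjusted p = 0.00235). In the difference between TSA effects 8 members were called once both TSA replicates a were left out, each with the lower effect in DTP. Beside them 51.8% of all genes were called, 3838 higher and 5517 lower, so lower effects in DTP were the more frequent among all genes too. The members were KDM5A at −0.29, KDM5C at −0.25, KDM4A at −0.22, KDM4C at −0.33 and KDM6B at −0.41 (adjusted p between 0.00458 and 0.0392) beside KDM1A, KDM5B and KDM4B. With all libraries these 5 lay at −0.18, −0.09, −0.02, −0.07 and −0.13, with adjusted p of 0.501 or more.

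**Figure D3:**
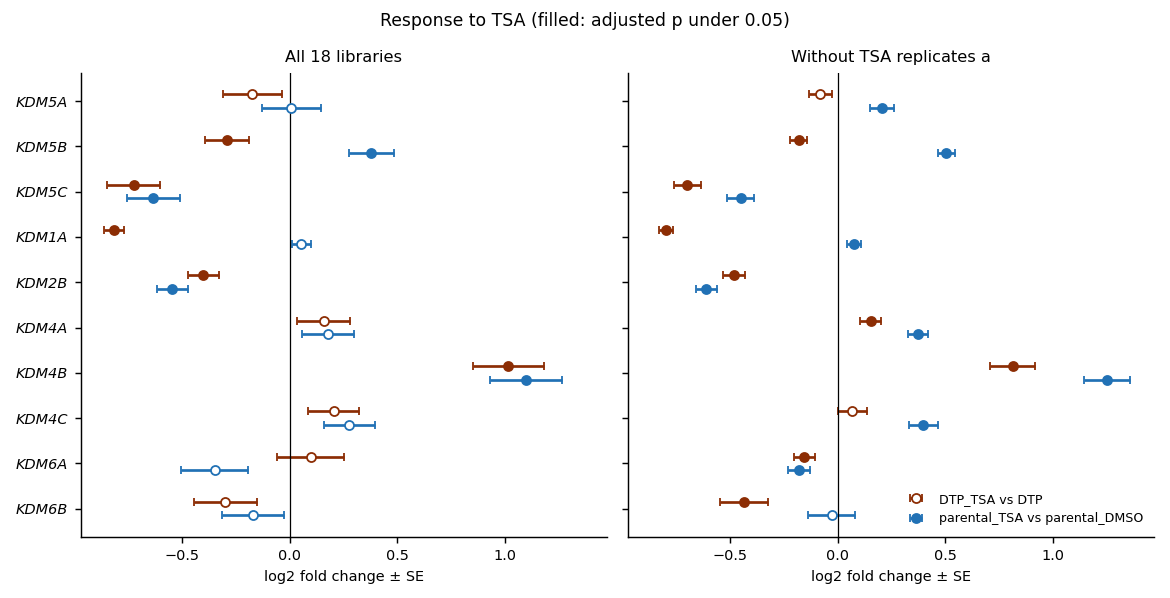
Log2 fold change with standard error of each member with TSA in DTP cells and in parental cells, in all 18 libraries and without both TSA replicates a, filled where the adjusted p was under 0.05. KDM1A and KDM5B lay apart between both states in both panels, and KDM4B lay right of 0 in both states.

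ERCC RNA had been added by cell number, which allows a scale per spike-in read in place of the usual scale between libraries, with DTP_TSA replicate a left out of that fit. On it the median of all genes moved by 0.10 in DTP, −0.34 after erlotinib, 0.66 after carboplatin, 0.19 in DTP_TSA against DTP, 0.45 in DTP against erlotinib_24h and 0.16 in the difference between TSA effects. Genes called in carboplatin then split into 10618 higher and 1213 lower, against 5340 and 5046 on the usual scale. The split was 4665 higher and 7207 lower after erlotinib (6457 and 5776 on the usual scale), 5631 and 3224 in DTP (5471 and 4911), 4446 and 2582 in DTP_TSA against DTP (4508 and 5407), and 8502 and 2030 in DTP against erlotinib_24h (5382 and 4377).

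KDM5B stayed higher on the spike-in scale in DTP (1.02, adjusted p = 0.000732), after erlotinib (0.80, adjusted p = 0.00319) and after carboplatin (1.46, adjusted p = 1.52e-05). KDM6A in DTP (0.95, adjusted p = 0.00268), KDM4B in DTP (0.67, adjusted p = 0.0218) and KDM6B after carboplatin (2.28, adjusted p = 2.37e-07) also stayed higher. KDM1A stayed lower in DTP (−0.75, adjusted p = 0.00131), after carboplatin (−0.74, adjusted p = 0.00101), in DTP against erlotinib_24h (−0.96, adjusted p = 0.000115) and in DTP_TSA against DTP (−0.65, adjusted p = 0.0123). Its rise after erlotinib was not called there (0.21, SE 0.17, adjusted p = 0.282). Neither was that of KDM5A in DTP (0.51, SE 0.25, adjusted p = 0.105) or after erlotinib (0.27, SE 0.25, adjusted p = 0.354). Errors were wider on this scale, so a lost call is not by itself a smaller change. For KDM5A in DTP the usual scale gave 0.42 with an SE of 0.14. KDM2B and KDM4B changed sign after carboplatin, to 0.06 and 0.07 (adjusted p = 0.703 and 0.792), which relative to the shifted median of all genes is −0.66 and −0.65. KDM5A was called after carboplatin on this scale (0.79, adjusted p = 0.0115). In DTP against erlotinib_24h, KDM5A, KDM5B, KDM5C and KDM4C turned to 0.24, 0.22, 0.28 and 0.30, none of them called (adjusted p of 0.246 or more), and KDM2B was called higher (0.52, adjusted p = 0.00401). The difference between TSA effects in KDM1A was −0.71 (adjusted p = 0.0671) and in KDM5B −0.45 (adjusted p = 0.367), so neither was called on this scale.

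KDM1A works with CoREST proteins and deacetylases, and among its partner genes more rose than fell in each drug group on the usual scale. Of 11 partners tested, 6 rose and 3 fell in DTP (median log2 0.34, all genes 0.06), 7 rose and 3 fell after erlotinib (0.41, all genes 0.11), and 6 rose and 3 fell after carboplatin (0.29, all genes 0.06). The spike-in scale gave 5 that rose and 2 that fell in DTP, 3 and 3 after erlotinib, so that the excess was lost there, and 8 that rose after carboplatin. With TSA 4 rose and 5 fell in DTP_TSA (0.04, all genes −0.08) and 5 rose and 4 fell in parental_TSA (0.20, all genes 0.06). PHF21A, the CoREST subunit that reads unmethylated H3K4, averaged 34.5 ± 0.584 CPM in DTP and 73.2 ± 0.0701 CPM after erlotinib, against 11.9 ± 0.748 CPM in parental_DMSO (SD, n = 3 each), log2 fold changes of 1.53 and 2.62 (adjusted p = 8.26e-09 and 5.03e-12). The deacetylase HDAC2 fell in DTP (282 CPM, against 427 CPM in parental_DMSO, log2 −0.60, adjusted p = 1.29e-08) and after erlotinib (248 CPM, log2 −0.78, adjusted p = 2.02e-10). RCOR1 and HDAC1 also had lower means in DTP, at 105 and 194 CPM, against 166 and 245 CPM in parental_DMSO. RCOR2 and GFI1 had higher means in DTP but low levels, at 2.00 and 3.62 CPM, against 0.944 and 1.81 CPM in parental_DMSO. The counts of partners thus do not describe the complex as a whole. The TSA effect on PHF21A was lower in DTP than in parental cells (difference −1.60, SE 0.17, adjusted p = 1.63e-06). In this difference 6 of 11 partners were called lower and 1 higher. PHF21A averaged 29.6 CPM in parental_TSA, against 11.9 CPM in parental_DMSO, and 28.3 CPM in DTP_TSA, against 34.5 CPM in DTP. KDM1A moved otherwise, at 584 CPM in parental_TSA, against 563 CPM in parental_DMSO, and 179 CPM in DTP_TSA, against 315 CPM in DTP.

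**Figure D4:**
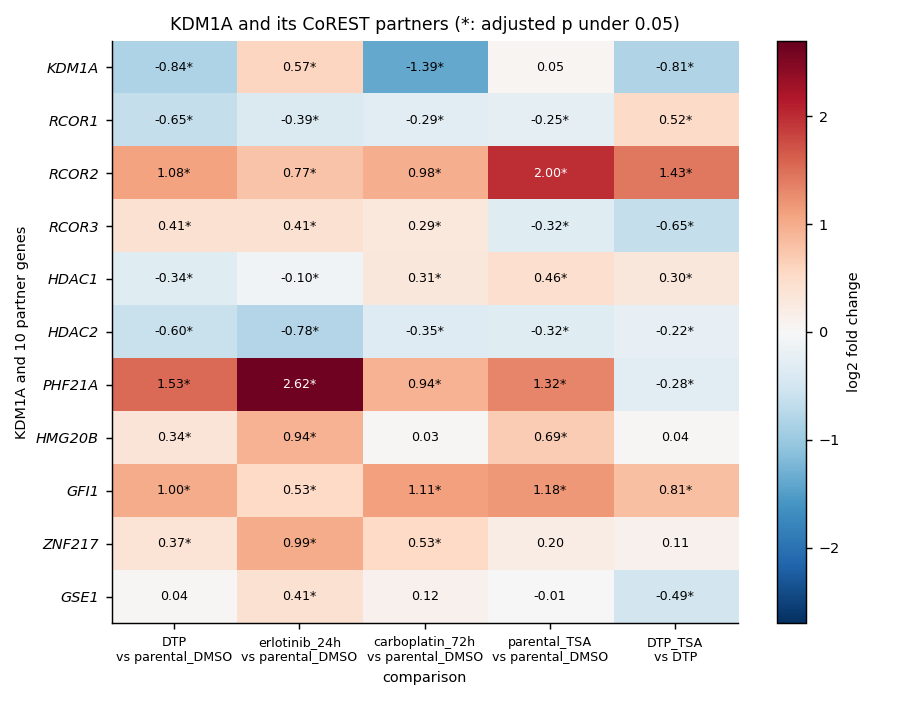
Log2 fold changes of KDM1A and 10 of its 11 CoREST partner genes in 5 comparisons, with a star where the adjusted p was under 0.05. PHF21A reached 2.62 after 24 h of erlotinib, and KDM1A lay at −1.39 in carboplatin_72h.

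Partners of the other members moved both ways in DTP, except that with all libraries only falls were called among COMPASS genes linked to KDM6A. Of all genes 31% were called higher and 27.8% lower in DTP, and 25.6% higher and 30.7% lower in DTP_TSA against DTP. Of 9 SIN3 complex genes linked to KDM5, 2 rose and 3 fell in DTP (median log2 −0.09, and 0.01 on the spike-in scale) and 3 rose and 5 fell in DTP_TSA (1 and 1, and 2 and 2, on the spike-in scale), where SAP30 averaged 8.48 CPM, against 2.90 CPM in DTP (log2 1.55, adjusted p = 7.34e-08). Of 8 genes of the PRC1.1 complex that works with KDM2B, 2 rose and 4 fell in DTP. BCOR, counted among these 8, was near the floor, at 0.0408 CPM in DTP and 0.113 CPM in parental_DMSO. The PRC1.1 deubiquitinase USP7 averaged 155 CPM in DTP and 140.04 CPM after erlotinib, against 298 CPM in parental_DMSO (log2 −0.94 and −1.09, adjusted p = 6.31e-09 and 4.99e-10). Of 9 COMPASS genes that work with KDM6A, 0 rose and 4 fell in DTP (1 and 7 without both TSA replicates a), where KDM6A itself rose. WDR5, a core subunit of H3K4 methyltransferases, averaged 70.1 CPM in DTP and 38.1 CPM after erlotinib, against 139.8 CPM in parental_DMSO (log2 −0.997 and −1.87, adjusted p = 4.11e-11 and 7.77e-15).

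The methyltransferases that oppose these enzymes were counted in DTP in the same way, where 31% of all genes were called higher and 27.8% lower. Of 7 H3K4 methyltransferase genes, which share KMT2C and KMT2D with the COMPASS list, 0 rose and 3 fell (median log2 −0.19), of 9 H3K27 and PRC2 genes 3 rose and 5 fell (−0.26), of 6 H3K9 methyltransferases 0 rose and 2 fell (−0.18), and of 5 H3K36 methyltransferases 0 rose and 1 fell (−0.26), against a median of 0.06 for all genes. Without both TSA replicates a, 1 rose and 5 fell among H3K4, 3 rose and 5 fell among H3K27 and PRC2, 0 rose and 4 fell among H3K9, and 0 rose and 4 fell among H3K36 genes. With spike-in scaling 3 fell and 1 rose among H3K27 and PRC2, 2 fell among H3K9 and 1 fell among H3K36 genes, and the 3 falls among H3K4 genes were lost. Each count of 0 here and among the COMPASS genes, made with edgeR, was also 0 by DESeq2 and at an unadjusted p under 0.05 with all libraries. EZH2, the catalytic subunit of PRC2, averaged 52.2 CPM in DTP and 20.1 CPM after erlotinib, against 90.1 CPM in parental_DMSO (log2 −0.79 and −2.16, adjusted p = 0.000135 and 7.44e-10). SUV39H2 averaged 20.1 CPM in DTP and 9.66 CPM after erlotinib, against 40.2 CPM in parental_DMSO (log2 −0.999 and −2.06, adjusted p = 1.58e-09 and 9.21e-14). With TSA, all 5 H3K36 methyltransferases fell in parental_TSA cells (median −0.77) and 4 of 5 in DTP_TSA cells (median −0.59), or 3 and 1 of them on the spike-in scale, among them NSD1 at 35.9 CPM in DTP_TSA, against 105 CPM in DTP (log2 −1.54, adjusted p = 6.28e-06).

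A list of 14 further Jumonji and amine oxidase genes was also counted, and not all of these are established histone demethylases. Of them 3 rose and 5 fell in DTP (median log2 −0.09, and 0.01 on the spike-in scale) and 3 rose and 7 fell after erlotinib. After carboplatin 4 rose and 4 fell, in DTP_TSA 2 rose and 9 fell, and in parental_TSA 3 rose and 9 fell. The shares of all genes called in these comparisons are given above. RIOX1, RIOX2 and JMJD6, whose standing as demethylases is unsettled, had lower means in DTP. These were 16.5, 86.6 and 14.3 CPM, against 25.8, 126 and 24.9 CPM in parental_DMSO. With spike-in scaling 4 fell in DTP and the 3 rises were lost, 1 rose and 7 fell after erlotinib, 8 rose and 1 fell after carboplatin, 2 rose and 4 fell in DTP_TSA, and 3 rose and 7 fell in parental_TSA. KDM7A, an H3K9 and H3K27 demethylase, averaged 25.3 ± 0.333 CPM after erlotinib, against 5.74 ± 0.483 CPM in parental_DMSO (SD, n = 3 each; log2 2.14, adjusted p = 3.2e-10). KDM3A, an H3K9 demethylase, averaged 113 CPM after carboplatin, against 46.2 CPM in parental_DMSO (log2 1.30, adjusted p = 7.74e-09). HR, the hairless gene, averaged 5.58 CPM in DTP, against 17.8 CPM in parental_DMSO (log2 −1.68, adjusted p = 1.95e-10). KDM3B averaged 41.8 CPM in DTP_TSA, against 105 CPM in DTP (log2 −1.33, adjusted p = 1.17e-07).

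Cofactor genes were also counted, since Jumonji enzymes use 2-oxoglutarate and KDM1A uses FAD. Of 11 genes of 2-oxoglutarate supply and removal, 2 rose and 7 fell in DTP, beside 31% of all genes higher and 27.8% lower. After erlotinib 4 rose and 6 fell, beside 36.6% of all genes higher and 32.7% lower. The list pools genes of supply with genes of removal, so these counts do not give the direction of supply. IDH1, the cytosolic isocitrate dehydrogenase that makes 2-oxoglutarate, averaged 99.2 ± 3.78 CPM in DTP and 879.6 ± 12.6 CPM after erlotinib, against 56.5 ± 1.89 CPM in parental_DMSO (SD, n = 3 each). These were log2 fold changes of 0.81 and 3.96 (adjusted p = 3.61e-10 and 2.27e-18). IDH3A, a subunit of the mitochondrial enzyme, averaged 58.1 CPM in DTP and 34.9 CPM after erlotinib, against 121 CPM in parental_DMSO (log2 −1.05 and −1.79, adjusted p = 1.29e-11 and 8.8e-15). Both FAD synthesis genes fell in DTP, RFK by 0.55 (adjusted p = 0.000146) and FLAD1 by 0.24 (adjusted p = 0.00448), the call of FLAD1 being lost on the spike-in scale (−0.15, adjusted p = 0.361).

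The members did not share a single pattern over the 18 libraries. Of their 45 pairs, 31 had a Pearson correlation of log2 CPM above 0 and 14 below, with a median of 0.26; the libraries share their groups, so these are descriptions. Over the same 18 libraries the gene most like KDM1A was ALDH3A1, an aldehyde dehydrogenase (r = 0.98), followed by the aldo-keto reductases AKR1C3 and AKR1C2 (r = 0.97 each), closely similar paralogs whose reads may be split between them. The genes most like KDM5B were TRIM38, PLEKHG2 and CREBRF (r = 0.97 each). KDM4A was most like ZNF217, a CoREST partner (r = 0.98), and KDM6A most like FBXW8 (r = 0.96). KDM6B was most like AKAP17A, PI4KB and TBKBP1 (r = 0.96 each), KDM4B like TECPR1, PCYT2 and CREB3L2 (r = 0.97 to 0.98) and KDM4C like PRKCA, SBF2 and FOXP1 (r = 0.97 to 0.98). Among the genes closest to KDM5A were SEC24A and CMTM6, with r between 0.94 and 0.95, but without both TSA replicates a they ranked 154 and 38 of 10863 genes. KDM5C was most like SRRM2 (r = 0.98), which ranked 18 without them, and KDM2B like RPN1 (r = 0.94), which ranked 16.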

How the data were processed

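RNA was measured in 18 libraries by sequencing of polyA-selected RNA with ERCC spike-in added by cell number, per the labels. The authors deposited expected counts, estimated reads per gene and per ERCC transcript that are not scaled between libraries; the submitters' processing notes name Salmon. Build, annotation and strand setting were not given in the sources used here, beyond Salmon's name. In each of the 2 tables, 3 columns could be matched to no sample and were left out. Identifiers without a symbol took 0.247% of gene reads.

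Counts were rounded, filtered by edgeR's expression filter (17641 genes kept) and scaled by TMM. One fit of all 18 libraries with a term per group (edgeR 4.0.16, limma 3.58.1, R 4.3.3; 12 residual degrees of freedom, biological coefficient of variation 0.136) gave 7 contrasts, tested by quasi-likelihood F-tests with Benjamini-Hochberg adjustment over all genes, threshold 0.05. The fit was also run on simulated data in which a small set of genes was changed in DTP alone and no library stood apart. That setting differs from these data, so the run does not show how the fit behaves here. Depth was 32139300 to 128294000 gene reads per library, and members had 325 to 76813 reads in a library. Counting error of single members was not set apart from replicate spread. Alternatives were DESeq2 1.42.0, RLE factors, other filters, single libraries or both TSA replicates a left out, groups fitted alone, spike-in library sizes and a block for replicate letter.

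All members were named; from each list, up to 3 genes per contrast with the smallest adjusted p under 0.05 (genes of the lists outside a contrast's top 3 are given in the plot or as examples chosen after their values were seen), and 3 genes per member by correlation of log2(CPM + 0.5) among genes of at least 5 CPM. Members and lists were chosen with earlier results of these data known. The labels do not say whether same letters pair libraries, and the main fit did not pair them. In 0 of 15 group pairs was every same-letter correlation of deviations over 0.1 (range -0.197 to 0.334). With 3 libraries per group this cannot settle whether letters pair libraries. A CoREST partner counted in its list and a gene close to KDM5A are not reported here by name.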

Additional observations from a re-analysis of the deposited data

Results flagged for a closer look

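The response to TSA differed between DTP and parental cells for 2 of 10 members by the test of the difference itself. Of all genes 38.3% were called in this test, 15.3% higher and 23% lower, a larger share than that of the members. For KDM1A the TSA effect in DTP minus that in parental cells was -0.87 on the log2 scale (adjusted p = 2.96e-08), with 3 of 3 DTP_TSA libraries below every DTP library and parental_TSA libraries that overlapped parental_DMSO. For KDM5B the difference was -0.67 (adjusted p = 0.00177), with 3 of 3 DTP_TSA libraries below DTP and 3 of 3 parental_TSA libraries above parental_DMSO. On the spike-in scale both kept their sign and missed the threshold, and the cause was not tested.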

How the results depend on the processing

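Of the members' fold changes, 3 turned sign with a call on either side: KDM2B (0.063) and KDM4B (0.073) in carboplatin on the spike-in scale, and KDM6A in DTP_TSA against DTP (-0.15) without both TSA replicates a. On the spike-in scale 4 members were called after erlotinib, 2 in parental_TSA, 2 in DTP_TSA and 3 in DTP against erlotinib_24h (2 higher and 1 lower, in place of 0 and 4). Of all genes 11872, 8480, 7028 and 10532 were called there, against 12233, 10267, 9915 and 9759 on the usual scale. In the difference between TSA effects 0 members were called, and 2717 genes in place of 6750. Of the 0 there by edgeR, 1 had an unadjusted p under 0.05, and DESeq2, on its own size factors, called 2. Without both TSA replicates a, 9 members were called in parental_TSA, 8 in DTP_TSA, 9 in DTP against erlotinib_24h and 8 in the difference. Of all genes 69.3%, 70.3%, 71.5% and 51.8% were called there. With groups fitted alone, 9 members were called in DTP against erlotinib_24h, beside 13274 genes in all. The cause was not tested. With each library left out in turn, called members ran from 4 to 7 in parental_TSA, 4 to 8 in DTP_TSA, 4 to 8 in DTP against erlotinib_24h and 2 to 5 in the difference, each highest without parental_TSA replicate a. Genes called in all ran there from 9167 to 11780, 8964 to 11319, 8742 to 11340 and 5748 to 7850. The counts of members for DTP (4 to 7), erlotinib (9) and carboplatin (6 to 9) stayed within 1.5 times those reported. Genes called in all were 9468 to 11788, 11488 to 13450 and 9384 to 11939. With the replicate letter as a block, called members were 6 in DTP, 9 after erlotinib, 8 after carboplatin and 4 in parental_TSA. They were 5 in DTP_TSA, 5 in DTP against erlotinib_24h and 2 in the difference. Genes called in all were 10300, 12147, 10272, 10139, 9758, 9652 and 6641 in the same order. The added call was KDM5B in DTP against erlotinib_24h (-0.23, adjusted p = 0.0449). KDM2B in DTP was also not called with RLE factors, without a filter or with a filter of 1 CPM in 3 libraries. Members had at least 325 reads in each library.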
